A study of Mus musculus with 6 samples.

Results

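The genes described here are 10 transcripts of adipocytes, the lipid-storing cells of fat tissue: Adipoq, Cfd, Lep and Retn, which encode secreted proteins, Plin1, Plin4 and Cidec, which encode proteins of the lipid droplet, and Pparg, Fabp4 and Lpl, which serve fat cell differentiation and fatty acid handling. They were found by their symbols among the 53819 genes listed in the deposited tables, and all 10 were present. Cfd was chosen by its normalized counts, for its fall in DTR tendons in these same libraries, so its values are given as a description without a test. RNA was sequenced from flexor digitorum longus (FDL) tendons of the hind paw, 1 tendon per library, in 3 DTR and 3 WT mice that were 10 to 12 weeks old at surgery, after transection and suture repair. DTR mice were Scx-Cre+; DTR F/+ and express the diphtheria toxin receptor wherever the Scx-Cre driver has removed a stop cassette, which covers the broad Scleraxis lineage and cannot separate its subpopulations. WT mice were Scx-Cre-; DTR F/+ littermates, so both groups carried the receptor allele. Both groups also received 5 daily local injections of diphtheria toxin (DT) between D14 and D18 after surgery, and tendons were taken at D28 after surgery. In the titles the 28 days are counted from depletion instead; the time in the methods is used here.

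White adipocytes keep triglyceride in a single large droplet, coated by perilipins and enlarged by CIDE proteins. They take up fatty acids that lipoprotein lipase frees from circulating lipoproteins, and they secrete hormones such as adiponectin and leptin. PPARG, together with C/EBP factors, is the transcription factor that drives their differentiation and turns on most of the genes named above. Around a tendon, fat cells occur mainly in the neighbouring loose connective tissue and near muscle, and Fabp4, Lpl and Pparg are also transcribed outside fat, in cells such as endothelium, macrophages or muscle.

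The libraries held between 42744138 and 48854310 counts on genes. The 10 genes of a tendon marker list, among them Scx and Tnmd, were counted in every library and together took 4.43% to 5.22% of the counts in WT and 5.06% to 6.16% in DTR tendons. The 10 adipocyte genes together took at most 0.0328% of a library. Replicate 2 of WT and replicates 2 and 3 of DTR were from females and the others from males, as read from Xist and Ddx3y. Normalized counts below are counts scaled by edgeR's TMM factors to the mean library size, given as mean ± SD (n = 3 per group), and log2 fold changes compare DTR with WT in edgeR's quasi-likelihood fit to the 17496 genes that passed its filter on low counts, 0.217 CPM (about 10 counts) in at least 3 libraries. Where 3 values are given for a group they are those of replicates 1, 2 and 3 in this order, and ± SE marks the standard error of a log2 fold change. Unless DESeq2, a left-out library or another setting is named, adjusted p-values are Benjamini-Hochberg values of that edgeR fit over the 17496 genes.

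Adipoq encodes adiponectin, a hormone made almost solely by fat cells. It had 96.4, 187 and 273 normalized counts across the WT replicates and 17.5, 62.2 and 26.7 across the DTR replicates. Every DTR library was below every WT library, and the closest pair was DTR replicate 2 and WT replicate 1. The means were 186 ± 88.5 in WT and 35.5 ± 23.6 in DTR tendons (SD, n = 3 each), which gave a log2 fold change of -2.38 ± 0.57 SE (edgeR adjusted p = 0.307). The difference had the same direction within each sex, at 187 against 62.2 and 26.7 in females, and at 96.4 and 273 against 17.5 in males. In tissue RNA of this kind, fewer adipocytes and less RNA per adipocyte cannot be told apart.

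Cfd encodes complement factor D, also called adipsin, the protease that cleaves factor B in the alternative complement pathway and that adipocytes secrete in quantity. Its normalized counts were 335, 752 and 1138 across the WT replicates and 83.5, 207 and 94.5 across the DTR replicates. The libraries stood in the same order as for Adipoq, with WT replicate 3 highest, WT replicate 1 lowest of the WT tendons, DTR replicate 2 highest of the DTR tendons and DTR replicate 1 lowest of all. The means were 742 ± 402 and 128 ± 68.1 (SD, n = 3 each), and the fitted log2 fold change was -2.53, between -3.06 and -2.08 with 1 library left out at a time. This difference is what Cfd was picked for.

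Lep and Retn, the genes of the hormones leptin and resistin, were close to the limit of detection. Lep had 10, 13 and 36 raw counts across the WT replicates and 0, 4 and 0 across the DTR replicates. A library at 0 counts allows up to 3 counts by counting error alone, so leptin transcripts were not detectable at this depth in 2 of the DTR tendons. The fitted value of -3.79 on the log2 scale (SE 1.06, edgeR adjusted p = 0.347) rests on the 4 counts of DTR replicate 2. Retn had 15, 44 and 41 raw counts across the WT and 7, 10 and 5 across the DTR replicates, and the exact 95% Poisson interval of WT replicate 1, from 8.40 to 24.7 counts, covered the 10 counts of DTR replicate 2, although the groups did not overlap. Its log2 fold change was -2.16 (SE 0.52, edgeR adjusted p = 0.300). Neither gene reached the filter's level in any DTR library, so both were tested only because of their level in WT, and a gene that passes in this way has to differ.

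**Figure D1:**
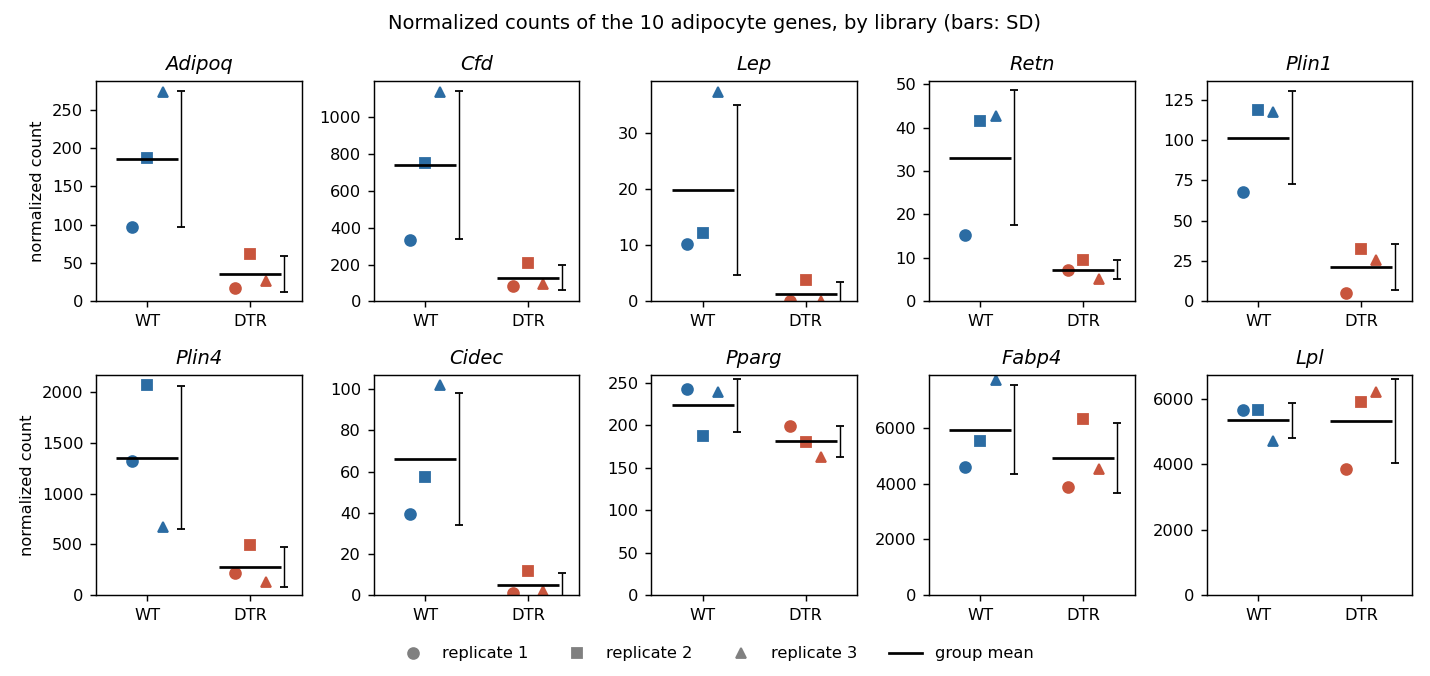
Normalized counts (y axis, linear, from 0) of the 10 adipocyte genes in WT and DTR tendons, 1 point per library, with the group mean as a horizontal line and its SD as a bar. In Adipoq, Cfd, Lep, Retn, Plin1, Plin4 and Cidec every DTR point lies below every WT point, and in Pparg, Fabp4 and Lpl the groups overlap.

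The sequences around the starts of 4 of these genes are shown, those of Adipoq and Cfd because their transcripts had nearly the same profile over the libraries, and those of Lep and Cidec because they hold a C/EBP motif. They come from RefSeq on GRCm38.p6 and run from 250 bases before to 50 bases after the transcription start, in the direction of transcription. For 8 of the 10 genes such sequences were at hand, 11 in all, since Cidec has 2 starts and Pparg 3. Capitals mark CCAAT or its reverse complement ATTGG in Adipoq, the C/EBP palindrome TTGCGCAA in Lep and TTTCGAAA, a match to TTNCGNAA, in Cidec, and Cfd held none of the searched motifs.
Adipoq, chr16:23146286-23146585, plus strand: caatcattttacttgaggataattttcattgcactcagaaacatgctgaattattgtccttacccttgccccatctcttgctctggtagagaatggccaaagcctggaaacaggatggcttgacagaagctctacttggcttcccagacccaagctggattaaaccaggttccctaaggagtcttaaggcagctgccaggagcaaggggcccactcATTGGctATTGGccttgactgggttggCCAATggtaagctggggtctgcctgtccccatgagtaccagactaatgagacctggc
Cfd, chr10:79890603-79890902, plus strand: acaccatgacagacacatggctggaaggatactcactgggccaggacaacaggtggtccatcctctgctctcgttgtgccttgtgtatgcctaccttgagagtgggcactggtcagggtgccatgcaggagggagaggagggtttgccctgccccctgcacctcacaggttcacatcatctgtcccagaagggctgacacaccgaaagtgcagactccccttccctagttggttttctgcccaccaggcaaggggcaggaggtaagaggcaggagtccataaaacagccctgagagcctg
Lep, chr6:29059971-29060270, plus strand: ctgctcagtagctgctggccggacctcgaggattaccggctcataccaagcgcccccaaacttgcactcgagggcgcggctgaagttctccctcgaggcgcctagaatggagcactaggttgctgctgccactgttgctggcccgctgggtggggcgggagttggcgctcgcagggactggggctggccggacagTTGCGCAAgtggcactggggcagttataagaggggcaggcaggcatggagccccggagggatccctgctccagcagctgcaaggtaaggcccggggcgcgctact
Cidec, chr6:113435711-113436010, minus strand: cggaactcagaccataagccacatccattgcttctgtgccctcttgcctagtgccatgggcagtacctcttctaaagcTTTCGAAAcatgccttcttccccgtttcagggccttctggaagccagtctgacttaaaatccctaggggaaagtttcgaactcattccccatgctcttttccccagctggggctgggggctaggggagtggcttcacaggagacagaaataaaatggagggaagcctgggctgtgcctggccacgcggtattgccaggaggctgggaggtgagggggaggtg
TTGCGCAA, the palindrome bound by C/EBP factors, lay from 55 to 48 bases before the start of Lep and was found in 0.183% of the 32851 promoters of the same length. TTNCGNAA, searched on both strands and holding the palindrome, was found in 2.47% of promoters, and among these genes in Lep and in the upstream start of Cidec, 172 to 165 bases before it. CCAAT on either strand was found in 37.4% of promoters and in 4 of the 11 sequences, from Adipoq, Plin4 and Pparg. In Adipoq it occurred 3 times, within 34 bases of the start. The PPAR response element, a direct repeat of AGGTCA with 1 base between the copies to which PPARG binds with its partner RXR, was in 0 of the 11 sequences and in 0.0396% of all promoters. A single AGGTCA was in 16.3% of promoters and TATAAA in 13.6%, both counted on either strand, and among these genes each was found in Pparg only. These matches describe letters in a short window only.

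In each of the 3 lipid droplet genes every DTR library was also below every WT library (7.85% of all tested genes), and none passed edgeR's test. Since these genes were chosen with the results known, nothing is read from this count. Plin1, which encodes the perilipin that guards the droplet of white adipocytes against lipases, had 68.0, 119 and 117 normalized counts across the WT and 5.15, 32.5 and 25.7 across the DTR replicates. The groups did not overlap, and the low value of DTR replicate 1 came from 5 raw counts. The log2 fold change was -2.25 (SE 0.60, edgeR adjusted p = 0.340).

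Cidec encodes the protein that lets small droplets merge into a large one. It had 39, 61 and 98 raw counts across the WT replicates and 1, 12 and 2 across the DTR replicates. The lowest WT library held 3.45 times the normalized counts of the highest DTR library (39.6 against 11.5), the widest gap between the groups among the 10 genes. The log2 fold change was -3.71 (SE 0.78, edgeR adjusted p = 0.274, the smallest of the 10 genes). In DTR tendons Cidec reached the filter's level in 1 library and Plin1 in 2, so these genes too were tested partly through WT. With 1 library left out at a time the log2 fold change of Cidec lay between -5.31, without DTR replicate 2, and -3.26, without DTR replicate 1.

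Plin4 encodes a perilipin of nascent droplets that skeletal muscle also makes. It was the most abundant of the droplet genes by count, with 1324, 2071 and 668 normalized counts across the WT and 213, 496 and 125 across the DTR replicates. WT replicate 3, the highest library for Adipoq, Cfd, Cidec and Lep, was the lowest WT library for Plin4. The log2 fold change was -2.28 (SE 0.71, edgeR adjusted p = 0.415), and it was -1.84 without WT replicate 2 and -3.00 without DTR replicate 2.

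In Pparg, Fabp4 and Lpl the groups overlapped. Pparg had 244, 187 and 240 normalized counts across the WT and 200, 181 and 163 across the DTR replicates, and WT replicate 2 lay within the DTR range. Its log2 fold change was -0.30, with a 95% interval from -0.75 to 0.15 (edgeR adjusted p = 0.572). Fabp4, which encodes an intracellular fatty acid carrier, had 4591, 5537 and 7713 across the WT and 3892, 6334 and 4549 across the DTR replicates, so that DTR replicate 2 was above WT replicates 1 and 2. Its log2 fold change was -0.27 (95% interval -0.89 to 0.34, edgeR adjusted p = 0.709). Lpl, the gene of lipoprotein lipase, averaged 5330 ± 543 normalized counts over WT and 5314 ± 1272 over DTR tendons (SD, n = 3 each). DTR replicate 1 was the lowest library and DTR replicate 3 the highest. The log2 fold change of Lpl was -0.0044, with a 95% interval from -0.44 to 0.43 (adjusted p = 0.995), and its sign turned when WT replicate 1, WT replicate 2 or DTR replicate 1 was left out (0.0393, 0.0391 and 0.18). None of the 3 intervals reached the log2 fold change fitted for Adipoq.

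**Figure D2:**
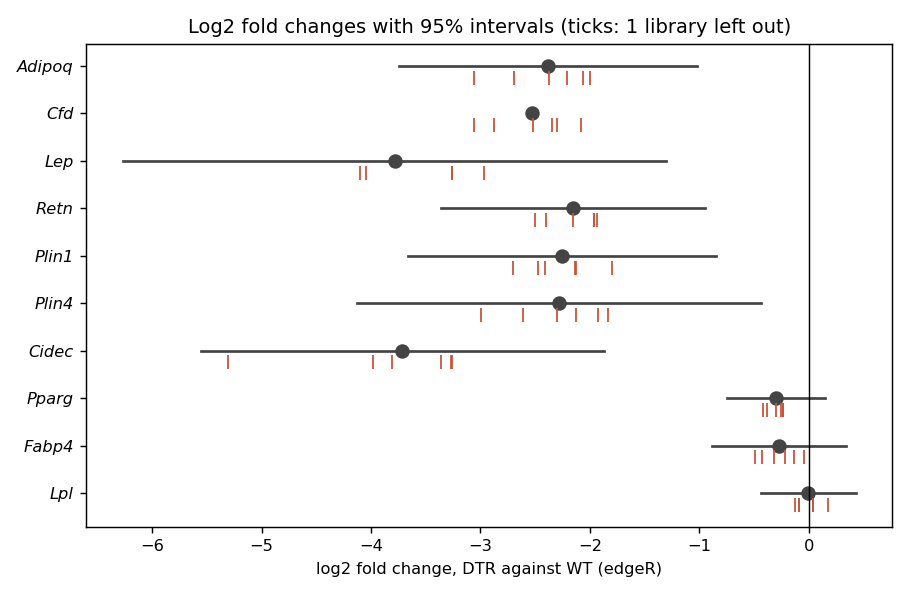
Log2 fold change of each adipocyte gene, DTR against WT (x axis), as a dot with its 95% interval from edgeR's fit, and as ticks the value with each library left out in turn. Cfd is drawn without an interval because it was picked for this difference, and the tick of Lep without DTR replicate 2 is not drawn because the other DTR libraries held 0 counts.

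The groups did not overlap in 7 of the 10 genes, all lower in DTR tendons, where 7.85% of all tested genes were lower without overlap. All 10 were fitted lower, with a median log2 fold change of -2.27 against 0.0082 over all tested genes. Since Cfd entered for its fall and the others with these results known, nothing is read from this count or this median. With a threshold of 0.05 on the adjusted p, the edgeR fit called 0 of the 10 genes and 0% of all tested genes, and Cfd apart, 6 of the other 9 had an unadjusted p under 0.05, where 5.45% of all genes did in this direction and 5.52% in the other. Of these 6, Lep and Retn passed the filter through WT alone, so nothing is read from this count either. DESeq2 on the same counts called 1.53% of 17564 genes lower, and these included Adipoq (adjusted p = 0.000289), Cidec (0.00012), Plin1 (0.00365) and Retn (0.0487), while Lep (0.0512) and Plin4 (0.0558) missed the threshold by DESeq2. DESeq2 was run without edgeR's filter, and the Retn call rests on counts under that filter's level in every DTR library, so nothing is read from it. Without DTR replicate 2, edgeR called Adipoq (adjusted p = 0.0308) and Cidec (0.0137), the latter then with no DTR library at the filter's level and so tested through WT alone. That same fit called 441 of 17998 genes lower and 103 higher, so nothing is read from these calls. In all 7 genes without overlap, DTR replicate 2 was the highest DTR library, and in 6 of them WT replicate 1 was the lowest WT library.

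Cfd and Adipoq kept nearly the same proportion in every library. There were 3.47, 4.02 and 4.16 Cfd counts per Adipoq count across the WT replicates and 4.76, 3.32 and 3.54 across the DTR replicates, which is 3.88 ± 0.36 in WT and 3.88 ± 0.78 in DTR tendons (SD, n = 3 each). The levels themselves differed by 15.6 times for Adipoq and 13.6 times for Cfd between the highest and the lowest library. The 17 Adipoq counts of DTR replicate 1 limit the precision of its ratio.

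**Figure D3:**
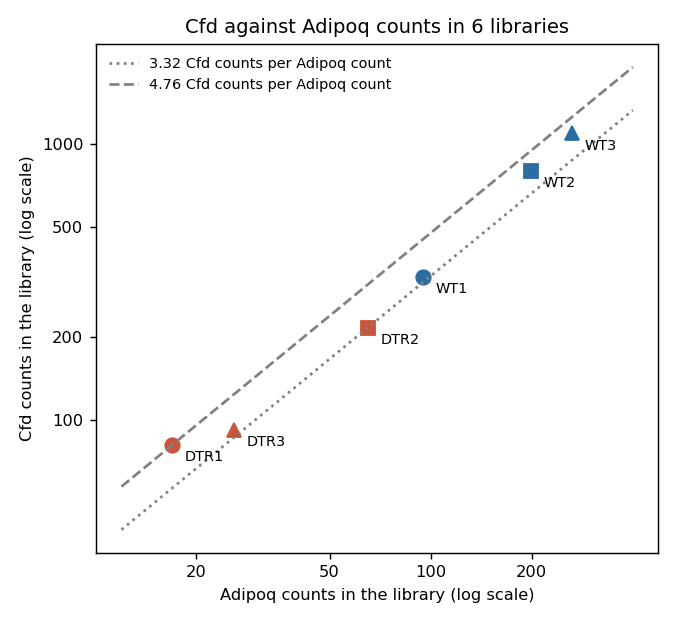
Raw counts of Cfd (y axis, log scale) against Adipoq (x axis, log scale), 1 point per library, WT in blue and DTR in red. The lines mark 3.32 and 4.76 Cfd counts per Adipoq count, the lowest and highest ratios, between which all 6 libraries lie.

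Likeness to Adipoq was measured as the root mean square difference between profiles of log2(CPM + 0.05) over the 6 libraries, each centred on its own mean. Cfd differed from Adipoq by 0.16, and none of 14407 other genes averaging 50 normalized counts or more came closer. When each group was centred on its own mean, so that the difference between WT and DTR tendons no longer counted, Cfd differed by 0.16 and 2 genes, Mstn and Hspb7, came closer. These names were chosen after their values were seen, and both are genes of muscle, Mstn encoding myostatin and Hspb7 a small heat shock protein. From Adipoq, Lep differed by 0.34, Plin1 by 0.45, Retn by 0.52, Cidec by 0.57 and Plin4 by 0.87, and Fabp4, Pparg and Lpl by 1.12, 1.26 and 1.33. These values include the difference between WT and DTR tendons. Of 14408 genes averaging 50 normalized counts or more, Cfd among them, 1, 2, 6, 12 and 286 were closer than Lep, Plin1, Retn, Cidec and Plin4. For Fabp4, Pparg and Lpl, 913, 2345 and 4696 were closer. The added 0.05 CPM pulls profiles of rare transcripts such as Lep together.

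Outside the 10 genes, those most like Adipoq were Klhl34 (root mean square difference 0.44), Fgf6 (0.46), Mss51 (0.50), Kcnc1 (0.50) and Abra (0.55), and those most like Cfd were Klhl34 (0.55), Fgf6 (0.57), Mss51 (0.59), Alas2 (0.60) and Abra (0.61). Fgf6, Mss51 and Abra are known as genes of skeletal muscle, and Alas2 encodes the haem-making enzyme of red cell precursors. Klhl34 had 100, 160 and 215 normalized counts across the WT and 17.5, 126 and 24.7 across the DTR replicates. It thus shared the order of Adipoq within WT, but DTR replicate 2 was above WT replicate 1.

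Transcripts of other tissues also differed between the libraries. A list of 15 skeletal muscle genes, all fitted lower in DTR tendons, took 2.38%, 2.13% and 1.73% of the counts across the WT replicates and 0.292%, 2.08% and 0.555% across the DTR replicates. By this summed share DTR replicate 2 was within the WT range for muscle. In this library Atp2a1 and Ryr1 were below every WT library, and Acta1, Mylpf, Tnnc2 and Casq1 were above every WT library. The WT mean was 2.99 (Adipoq), 3.59 (Cfd), 3.12 (Plin1), 2.73 (Plin4) and 5.78 (Cidec) times the level in DTR replicate 2. For the lowest WT library these values were 1.55, 1.62, 2.09, 1.35 and 3.45 in the same order. Within WT, the muscle share was highest in replicate 1 and lowest in replicate 3, the reverse of the order of Adipoq and Cfd, and within DTR it was highest in replicate 2 and lowest in replicate 1, the same order as that of both genes. A list of 10 keratinocyte genes took 0.281%, 0.176% and 0.000925% across the WT replicates and 0.000904%, 0.00122% and 0.026% across the DTR replicates, and 6 of its genes, among them Krt5 and Krt14, were at 0 in at least 1 library. WT replicate 3, with the most Adipoq and Cfd, had as little of it as DTR replicates 1 and 2. A list of 5 sebaceous gland genes took between 0.000272% and 0.00341% in WT and between 7.43e-05% and 0.000711% in DTR tendons. The part of these tissues in the levels of the adipocyte genes was not tested.

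Endothelial and macrophage transcripts took shares that overlapped between the groups. Between them, these cell types also make Fabp4, Lpl and Pparg. The 10 endothelial genes held 0.0706% to 0.0898% of the counts in WT and 0.0685% to 0.081% in DTR tendons, and the 10 macrophage genes held 0.372% to 0.456% and 0.403% to 0.441%, of which Lyz2 gave the most counts. Among the macrophage genes Cd163, a scavenger receptor of tissue macrophages, stood apart, with 2512, 2713 and 2122 normalized counts across the WT and 489, 1123 and 944 across the DTR replicates (log2 fold change -1.52 ± 0.31 SE, edgeR adjusted p = 0.293, DESeq2 adjusted p = 2.7e-06). The part of these cells in the levels of the adipocyte genes was not tested. There were 0.56 ± 0.074 Fabp4 counts per count of the endothelial gene Pecam1 in WT and 0.52 ± 0.13 in DTR tendons (SD, n = 3 each). Set against Adipoq, by contrast, Fabp4 had 47.6, 29.6 and 28.2 counts per Adipoq count across the WT replicates and 222, 102 and 170 across the DTR replicates. These ratios did not overlap between the groups, and no test was made of them, as they carry the difference of Adipoq itself and an exact test of 3 against 3 libraries cannot go below 0.10.

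**Figure D4:**
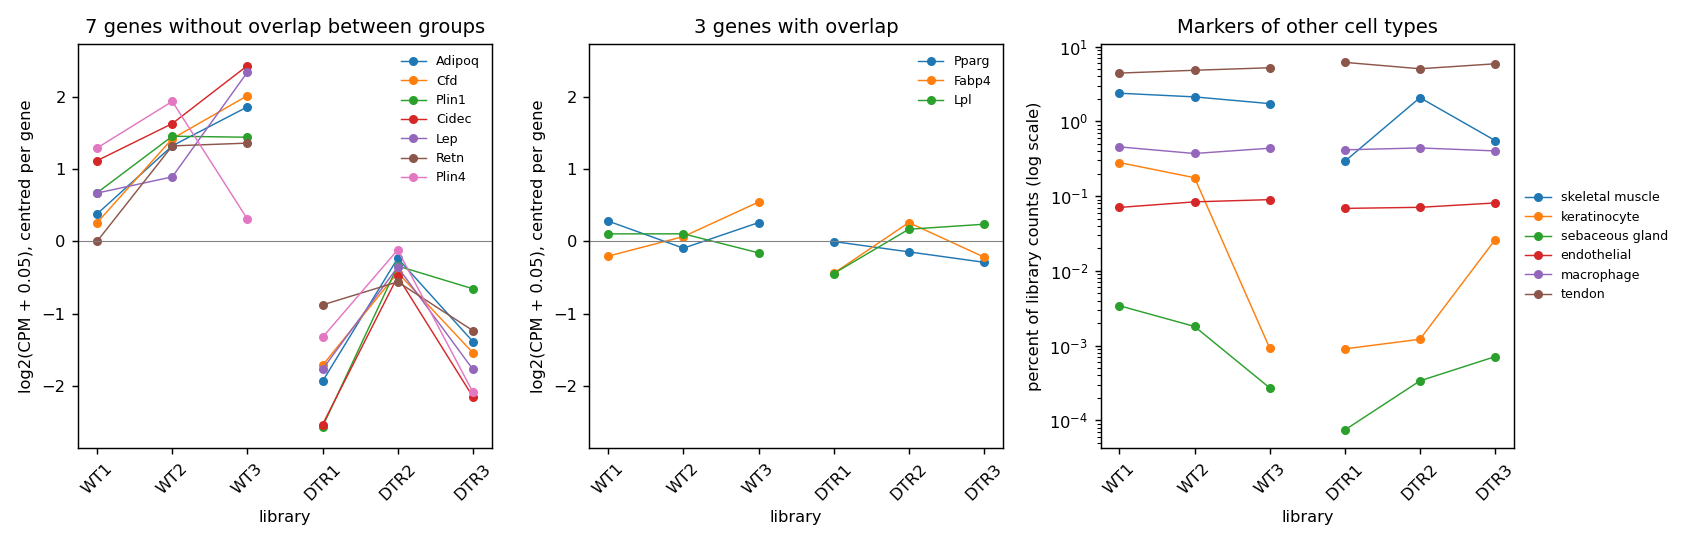
Left and centre, log2(CPM + 0.05) of the adipocyte genes in the 6 libraries, each gene centred on its mean (y axis, log2 units), for the 7 genes without overlap and the 3 with overlap between groups. Right, the share of counts of marker lists of other cell types (percent, log scale). Muscle is low in DTR1 and DTR3 against the other libraries, and keratinocyte markers are high in WT1, WT2 and DTR3. WT1 stands for WT replicate 1 and so on, and lines join libraries of a group for reading only.

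Compared per kilobase of the principal transcript, which sets genes of different length on a common scale (RPKM, from GENCODE M21 lengths), Fabp4 stood highest of the 10 genes, at 145 ± 38.9 in WT and 120 ± 30.7 in DTR tendons (SD, n = 3 each). Lpl followed, at 28.2 ± 2.87 and 28.1 ± 6.74 RPKM. Cfd was at 17.5 ± 9.49 RPKM in WT and 3.03 ± 1.61 in DTR tendons. In WT tendons, Plin4 (5.13 ± 2.66), Adipoq (3.13 ± 1.49) and Pparg (2.76 ± 0.39) overlapped in level. In DTR tendons Pparg, at 2.24 ± 0.23 RPKM, was above Plin4 (1.05 ± 0.73) and Adipoq (0.60 ± 0.40) in each library. Cidec, Plin1 and Retn were between 0.63 and 0.84 RPKM on average in WT and between 0.061 and 0.16 in DTR tendons, and Lep was lowest in both groups, at 0.13 ± 0.10 and 0.0085 ± 0.015. Together, Fabp4 and Lpl gave 76.5% to 82.8% of the counts of the 10 genes in WT and 92.4% to 96.0% in DTR tendons.

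A further 96 genes of fat cell biology were examined in 10 lists, written with the results for the 10 genes known. Of these, 93 passed the filter on low counts, and the edgeR fit called 0 of them after adjustment, while 18 were lower and 1 higher at an unadjusted p under 0.05 (5.45% and 5.52% of all tested genes). In 22 of the 93 every DTR library was below every WT library (23.7%, against 7.85% of all tested genes) and in 4 every DTR library was above (8.96% of all tested genes). DESeq2 called 9 lower and 1 higher (1.53% and 1.12% of all genes). The 9 were Adig, Ces1d, Dgat2, Fitm2, Klf15, Lpin1, Pnpla2, Ppargc1a and Tbx1, and the 1 was Rbp4. Some of the 22, such as Adig and Ces1f, passed edgeR's filter through WT alone, so nothing is read from these counts. The median log2 fold change of the 93 genes was -0.29. Several of the lower genes, such as Slc2a4, Ppargc1a and Gpd1, are also transcribed strongly in skeletal muscle, whose marker genes took a smaller share in 2 of the DTR tendons. The part of muscle in these values was not tested. The lowest and highest genes of a list named below are those among its genes averaging 50 normalized counts or more.

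Among 12 other adipocyte-enriched genes, 11 were fitted lower and 4 were lower without overlap (7.85% over all tested genes). Of these 4, Adig and Ces1f reached the filter's level in no DTR library, so nothing is read from this count. Adig, which encodes adipogenin, a small protein of fat cell droplets, had 25.4, 16.0 and 12.5 normalized counts across the WT and 0, 0.96 and 3.08 across the DTR replicates. Its log2 fold change was -3.63 (SE 0.78, edgeR adjusted p = 0.274), and as with Lep it passed the filter through WT. Ces1d, a carboxylesterase of adipocytes and liver, averaged 62.1 ± 10.8 in WT and 15.1 ± 13.5 in DTR tendons (SD, n = 3 each). Rbp4, the carrier of retinol that both liver and fat secrete, went the other way, with 73.1, 116 and 196 across the WT and 378, 244 and 226 across the DTR replicates (log2 fold change 1.14 ± 0.39 SE, edgeR adjusted p = 0.398). The lowest log2 fold change of the list was that of Serpina12, the gene of the adipokine vaspin, at -4.04 with a standard error of 2.43. Its normalized counts of 2128, 992 and 6.23 across the WT and 0, 12.4 and 178 across the DTR replicates stood in the same order over the 6 libraries as the keratinocyte share, and the part of skin in them was not tested.

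Of the lipid droplet proteins outside the 10 genes, Plin2, the perilipin found in most cell types, averaged 3338 ± 458 normalized counts over WT and 3557 ± 749 over DTR tendons (SD, n = 3 each), with a log2 fold change of 0.092 and a 95% interval from -0.30 to 0.49. Fitm2, which encodes a protein of droplet formation, had 1764, 1773 and 1257 across the WT and 979, 1071 and 968 across the DTR replicates, without overlap (log2 fold change -0.67 ± 0.14 SE, edgeR adjusted p = 0.274). Cidea, with the lowest log2 fold change of the list (-2.06, standard error 0.90), had 242, 166 and 33.3 across the WT and 9.27, 38.3 and 57.5 across the DTR replicates, and DTR replicates 2 and 3 were above WT replicate 3. For Cidea the libraries stood in the same order as for the keratinocyte share, and the part of skin in its values was not tested. Hilpda, an inhibitor of lipolysis induced by low oxygen, was the highest of the list at 0.28 (SE 0.13), with every DTR library above every WT library.

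Of the 7 tested genes of the lipolysis list, 3 were lower without overlap (7.85% of all tested genes), among them both main lipases of stored fat. None of the list passed edgeR's test. Pnpla2, which encodes ATGL, the enzyme that starts triglyceride breakdown, had 3136, 3507 and 2834 normalized counts across the WT and 1677, 2470 and 1610 across the DTR replicates (log2 fold change -0.72 ± 0.18 SE, edgeR adjusted p = 0.311). Lipe, the gene of hormone-sensitive lipase, had 602, 601 and 602 across the WT and 505, 398 and 478 across the DTR replicates (log2 fold change -0.39 ± 0.13 SE, edgeR adjusted p = 0.389). DESeq2 called Pnpla2 (adjusted p = 0.0095) and not Lipe (0.198). The list's lowest value was that of Adora1, an adenosine receptor that restrains lipolysis, at -1.20 (SE 0.69), and its highest that of Pde3b, at 0.16 (SE 0.099).

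In the list of triglyceride synthesis and glucose uptake, 9 of 16 genes were fitted lower, as were 8479 of the 17496 tested genes, and 5 were lower without overlap (7.85% of all). Dgat2, which makes the last step of triglyceride synthesis, had 1213, 851 and 438 normalized counts across the WT and 210, 383 and 258 across the DTR replicates (log2 fold change -1.55 ± 0.42 SE, edgeR adjusted p = 0.354, DESeq2 adjusted p = 0.000706). Scd1, a fatty acid desaturase, averaged 16730 ± 2462 in WT and 12046 ± 2067 in DTR tendons (SD, n = 3 each; log2 fold change -0.47 ± 0.16 SE, edgeR adjusted p = 0.401). Gpd1, which supplies the glycerol backbone, was lowest of the list, at -1.64 (SE 0.55), and Thrsp was highest at 0.53 (SE 0.65).

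Of 7 tested genes in the list of lipoprotein lipase partners and fatty acid uptake, 6 overlapped between the groups. The other 1 was lower without overlap (7.85% of all tested genes). Gpihbp1, which anchors the enzyme to the capillary wall, averaged 663 ± 80.4 normalized counts over WT and 529 ± 96.8 over DTR tendons, Cd36, a fatty acid receptor, 6572 ± 571 and 5225 ± 1920, and Angptl4, an inhibitor of the enzyme, 1628 ± 632 and 2482 ± 1567 (SD, n = 3 each). Angptl4 was highest of the list at 0.61 (SE 0.60) with 914 normalized counts in WT replicate 3 and 4206 in DTR replicate 1 as its extremes. The lowest was Vldlr, a lipoprotein receptor, at -1.62 (SE 0.61), which was lower without overlap.

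Over 11 adipogenic transcription factors the median log2 fold change was -0.12, and 3 of them were lower without overlap (7.85% of all). Cebpa, the partner of PPARG, averaged 1505 ± 144 normalized counts over WT and 1270 ± 79.5 over DTR tendons (SD, n = 3 each; log2 fold change -0.25, edgeR adjusted p = 0.452). Cebpb was at -0.19 (SE 0.23) and Srebf1 at -0.12 (SE 0.085). The lowest was Ppargc1a, a coactivator of PPARG and of mitochondrial genes that muscle and brown fat use, at -1.60 (SE 0.51, edgeR adjusted p = 0.398), and the highest Ebf2 at 0.32 (SE 0.22).

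Ucp1, the uncoupling protein that defines brown and beige fat, had at most 9.13 normalized counts in any library, was at 0 in 3 of them, and did not pass the filter. The lowest gene of the brown and beige list was Elovl3, with 523, 198 and 1.04 normalized counts across the WT and 0, 0.96 and 113 across the DTR replicates, an order close to that of the keratinocyte share. The highest was Tmem26, at 0.28 (SE 0.52). Over the 9 tested genes of this list the median log2 fold change was -1.29.

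For 10 genes of adipocyte progenitors the median log2 fold change was 0.024. Pdgfra, a receptor of mesenchymal progenitors and fibroblasts, averaged 14310 ± 995 normalized counts over WT and 14634 ± 2548 over DTR tendons (SD, n = 3 each), and its log2 fold change of 0.032 had a 95% interval from -0.29 to 0.36. Dlk1, which encodes the preadipocyte factor that holds back differentiation, averaged 88.4 ± 28.8 in WT and 111 ± 79.2 in DTR tendons (SD, n = 3 each). Dpp4 was highest of the list at 0.44 (SE 0.29), and the lowest was Gata3, at -1.85 (SE 1.13). For Gata3 the order of the libraries was close to that of the keratinocyte share, and the part of skin was not tested.

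The 5 receptors of adipocyte hormones and insulin were fitted between -0.27 and -0.019 on the log2 scale, and 2 of them were lower without overlap (7.85% of all). Lepr, the leptin receptor, averaged 1807 ± 166 normalized counts over WT and 1497 ± 242 over DTR tendons (SD, n = 3 each; log2 fold change -0.27, edgeR adjusted p = 0.489), and Insr, the insulin receptor, was at -0.019 (SE 0.095). In the alternative complement pathway, in which Cfd acts, C3 averaged 18711 ± 2352 in WT and 14565 ± 2923 in DTR tendons (SD, n = 3 each; log2 fold change -0.36, edgeR adjusted p = 0.482). Cfb, the gene of the protein that factor D cleaves, had 59.9, 43.3 and 50.9 across the WT and 63.9, 66.0 and 75.0 across the DTR replicates (log2 fold change 0.41 ± 0.26 SE, edgeR adjusted p = 0.569). Cfi, a protease that inactivates C3b, was lowest at -0.45 (SE 0.35).

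**Figure D5:**
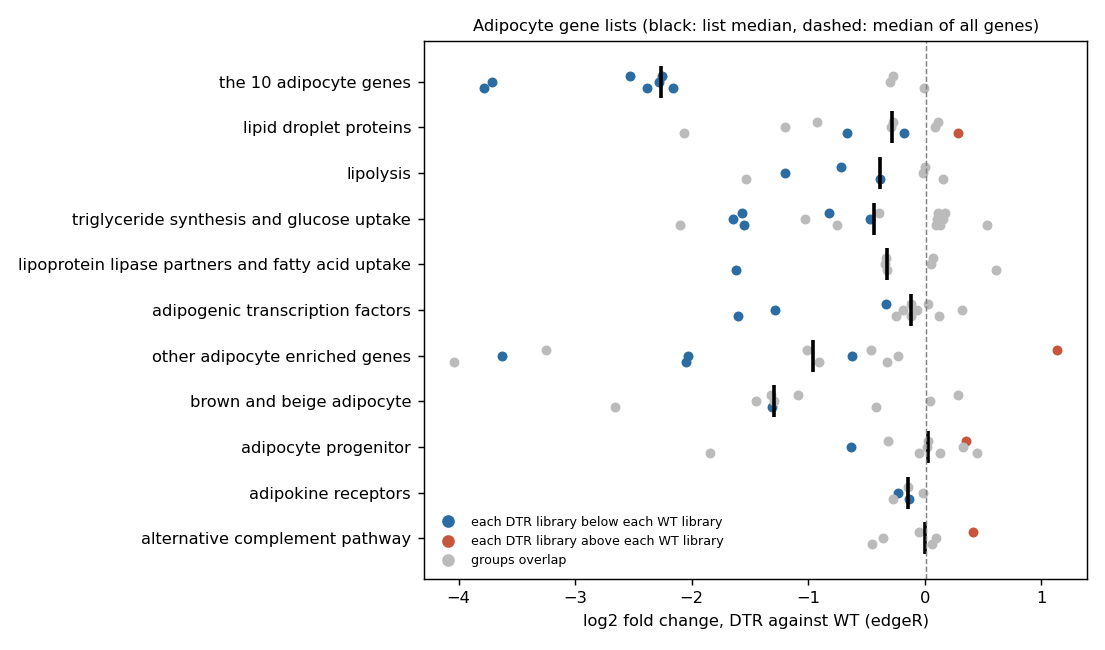
Log2 fold change, DTR against WT (x axis), of the tested genes of the 10 adipocyte genes and of each further list, with the list median in black and the median of all tested genes dashed. The median is -2.27 for the 10 genes, -1.29 for brown and beige genes, -0.96 for other adipocyte-enriched genes and 0.024 for progenitor genes. Colour shows whether the groups overlap.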

How the data were processed

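RNA was measured in FDL tendons of 3 DTR and 3 WT mice at D28 post-surgery. Per the methods and labels, libraries were made from 200 ng total RNA (TruSeq Stranded mRNA; the labels add a SMARTER kit). The authors demultiplexed the reads with bcl2fastq 2.19.0, cleaned them with FastP 0.20.0 and counted them per gene with featureCounts (subread 1.6.4). Aligner, genome build, annotation and strand setting are not given in the sources used here, so reads of overlapping genes cannot be told apart. The count table was deposited without normalization, and in the deposited signal table each library's values are those counts over a single size factor (DESeq2 1.22.1 per the labels).

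The deposited counts were fitted in edgeR 4.0.16 under R 4.3.3 (filterByExpr, TMM, robust quasi-likelihood fit, genotype as the single term). DESeq2 1.42.0 and limma 3.58.1 served as alternatives, beside other normalizations and filters, the replicate number as a block, sex as a covariate and each library left out. The tests were checked on simulated data. The 10 genes and all lists were chosen with earlier results of these data known. Named genes were the 10, in each list the highest and lowest log2 fold change among genes averaging 50 normalized counts or more, genes fixed by name, and the 5 genes most like Adipoq and Cfd. Fitm2, Adig, Ces1d, Ces1f, Slc2a4, Klf15, Lpin1, Tbx1, Cd163, Mstn and Hspb7 were added after their values were seen. Replicate libraries of a group differed by 40.3 to 205 chi-square per degree of freedom, so none was a duplicate, and p-values measure the spread between tendons. Poisson intervals cover counting error only. The result of 1 marker list of another cell type is not reported here.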

Additional observations from a re-analysis of the deposited data

How the results depend on the processing

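Between 13 and 14 alternatives gave a log2 fold change for each of the 10 genes, and the direction held in all of them for Adipoq, Cfd, Lep, Retn, Plin1, Plin4, Cidec, Pparg and Fabp4. That of Lpl turned to 0.0393, 0.0391 and 0.18 without WT replicate 1, WT replicate 2 and DTR replicate 1, within a range from -0.13 to 0.18 with 1 library left out. edgeR called 0 of the 10 genes, 0 of the further lists and 0 genes in all. DESeq2 called 5 (Cfd, chosen for its fall, among them), 10 and 466, and edgeR without a filter on low counts 0, 1 and 83. With 1 library left out the calls ranged from 0 to 2 of the 10 genes, 0 to 11 of the further lists and 0 to 544 in all, each highest without DTR replicate 2. The cause was not tested. The replicate numbers did not pair the libraries (correlations of same-numbered deviations -0.18, -0.14 and -0.68), and a fit with the replicate number as a block called 1 gene in all, Plin4 (log2 fold change -2.37, adjusted p = 0.0322 from edgeR). The median log2 fold change of the 10 genes was -2.27. It lay between -2.85 (without DTR replicate 2) and -2.04 with 1 library left out, and was -1.30 with at least 10 counts in every library, a filter that left 6 of the 10 genes and removed Cidec, Lep, Retn and Plin1. Counting depth limits Lep, Cidec and Retn in DTR tendons. For the likeness of Cfd to Adipoq, 3 kinds of alternative were added after the data were seen: centring within groups, which put Mstn and Hspb7 closer, a prior of 0.5 CPM, with 0 genes closer, and 1 library left out, with 0 genes closer except Klhl34 without DTR replicate 2.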
